A study of Mus musculus with 8 samples.

Results

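The genes described here belong to bone morphogenetic protein (BMP) signalling and number 10 of the 22180 genes measured in mouse pancreas. They are the antagonists Sostdc1, Grem1 and Nog, the ligands Bmp2, Bmp4 and Bmp7, and the target genes Id1, Id2, Id3 and Smad6. The list was chosen by the low Sostdc1 values of the knockout arrays relative to the control arrays, and the other 9 genes were added for their place in the pathway. The KO and WT values of Sostdc1 chose the list and are therefore given as a description, without a test. Each of the 10 genes had 1 row on the array and none was removed by a filter on low values.

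Expression was measured in total RNA of whole pancreas of C57 BL6 mice, 6 days after an intraperitoneal dose of tamoxifen (3 mg per 40 g of body weight). The knockout pancreata were of genotype LmnaKO (called KO here, 4 arrays, 3 males and 1 female) and the controls of genotype LmnaWT (WT, 4 arrays, 3 males and 1 female), and both had received tamoxifen. Lmna encodes lamin A/C, a filament protein lining the inner nuclear membrane, and the series title places its loss in acinar cells, the enzyme-secreting cells of the exocrine pancreas. No source used here gives the Cre driver, the allele or the ages. Values are log2 expression. Whether each array stands for its own animal is not stated in the labels, so a p-value here covers the spread among these samples only, and 4 arrays per group limit the precision.

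BMPs are secreted ligands that bind paired type I and type II receptor kinases, which phosphorylate SMAD1, SMAD5 and SMAD9. These enter the nucleus with SMAD4 and switch on target genes, among which the Id genes and the inhibitory SMADs are widely used as readouts. Antagonists bind the ligands outside the cell. SOSTDC1 is such an antagonist and also binds Wnt co-receptors. In the pancreas, BMP signalling takes part in organ formation and in the response to injury.

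The KO arrays differed from the WT arrays in their whole distribution. Their interquartile range over all rows was 2.45 to 2.65 log2 units, against 2.06 to 2.20 in WT arrays. Among genes with a mean level of 2 to 2.5 the median difference (KO minus WT, log2) was -0.23, and among those of 5 to 6 it was 0.50. The direction of a small difference is therefore set beside that of other genes of like level below. Lmna itself differed by -0.24 ± 0.15 (KO minus WT, log2 ± SE, limma adjusted p = 0.264). It is not known whether its row lies in the deleted part, so it does not check the labels. Acinar markers read high throughout, at a mean of 9.26 to 9.43 over 11 measured genes in KO arrays and 9.94 to 10.07 in WT arrays.

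Sostdc1 was the member with the widest gap between the groups. It read 4.40, 3.68, 5.12 and 3.37 in KO 1 to KO 4, against 7.11, 5.94, 7.16 and 5.82 in WT 1 to WT 4. Every KO array lay below every WT array, and the KO female was the lowest of all 8. The means were 4.14 ± 0.78 in KO and 6.51 ± 0.73 in WT (SD, n = 4 each), a difference of -2.36 log2 units that corresponds to 5.15-fold. In size this was rank 5 among the falls of all genes. The same-numbered pairs differed by -2.71, -2.26, -2.04 and -2.45. In a whole organ, fewer cells of the type that makes a transcript and less of it per cell cannot be told apart.

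**Figure D1:**
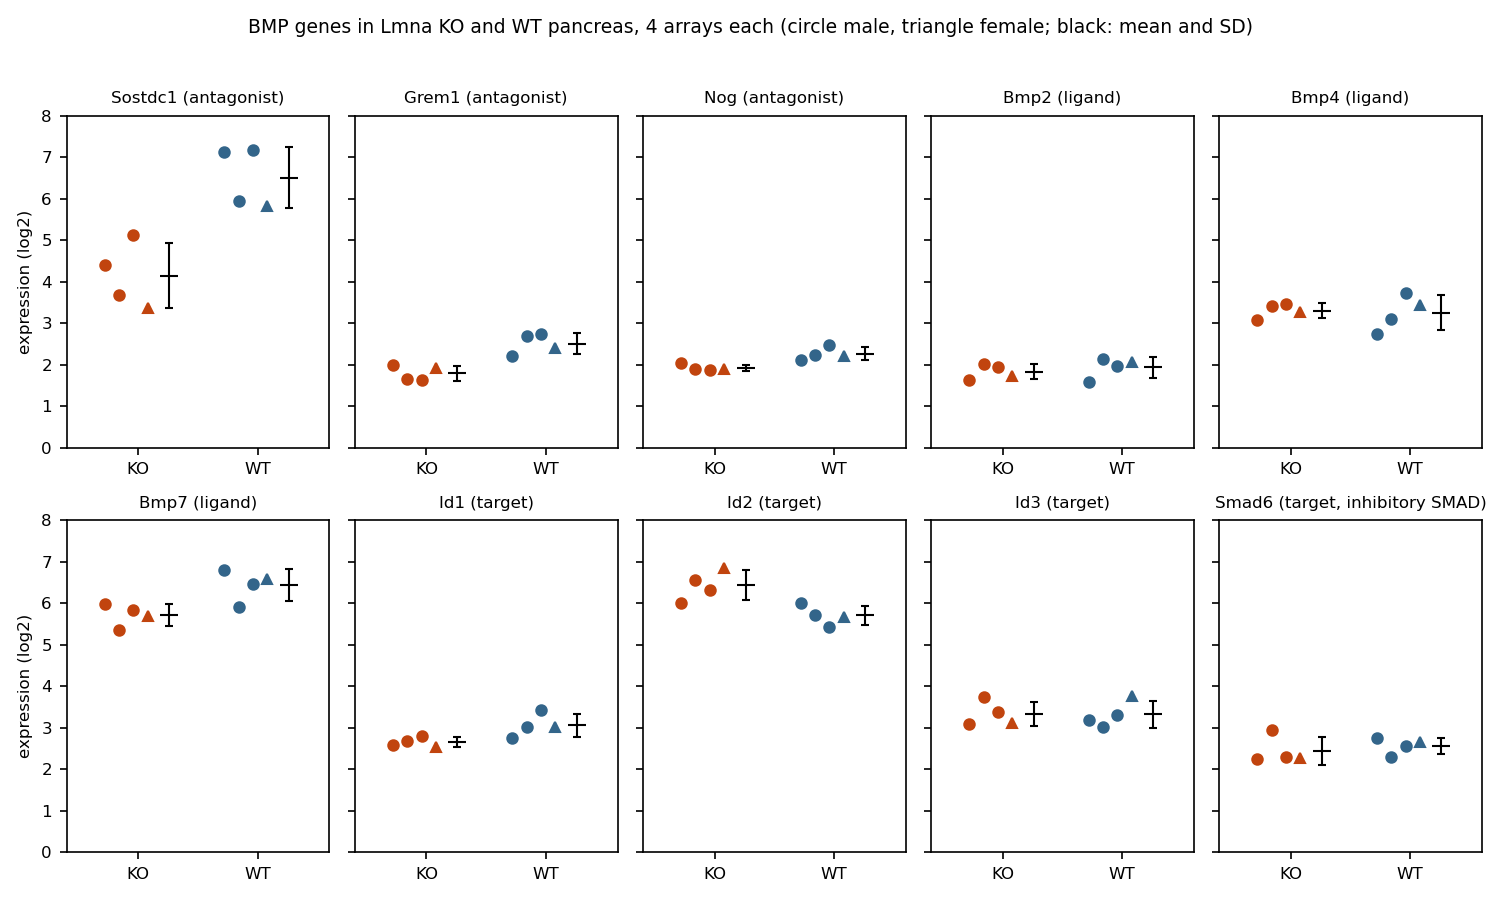
Expression (log2) of the 10 BMP genes in 4 KO and 4 WT arrays, with males as circles, the females as triangles, and the mean and SD in black. Sostdc1 is lower in every KO array (means 4.14 in KO and 6.51 in WT), Id2 is higher in KO (means 6.43 and 5.70 in WT), Bmp7 is lower (5.71 and 6.44 in WT), and Bmp4, Id3 and Smad6 overlap.

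Of the 9 other members, 1 was higher in KO (Id2) and 2 were lower (Bmp7 and Grem1) at a limma adjusted p under 0.05, and 6 did not pass. Over all genes 14.6% were called higher and 6.99% lower, or 21.6% in either direction. At an unadjusted limma p under 0.05, which is used below beside small counts, 21.9% of all genes were higher and 17.2% lower. Of all calls 67.6% were rises, a share that depended on scaling: quantile-normalizing the table again gave 51.8%, cyclic loess 56.4% and median centring 87.7%. The members therefore did not move together, and the 4 target genes held 1 call, that of Id2.

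Gremlin 1 (Grem1), a cystine-knot protein that binds BMP2, BMP4 and BMP7, fell in KO pancreas. It read 1.99, 1.65, 1.64 and 1.91 in KO 1 to KO 4, against 2.20, 2.70, 2.73 and 2.40 in WT 1 to WT 4. The groups did not overlap, which held for 27.4% of all genes. The difference was -0.71 ± 0.16 (log2 ± SE, n = 4 per group, limma adjusted p = 0.0137). Among the 3 males of each genotype it was -0.79, with an adjusted p of 0.0663. The mean level of Grem1 was low (2.15), and genes at levels of 2 to 2.5 had a median difference of -0.23.

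Noggin (Nog), which holds BMP dimers away from their receptors, read 2.04, 1.91, 1.87 and 1.91 in KO arrays, against 2.12, 2.24, 2.48 and 2.21 in WT arrays. The groups did not overlap, by a margin of less than 0.1 between KO 1 and WT 1. The difference of -0.33 ± 0.12 did not pass (limma adjusted p = 0.0679). It passed without WT 1 (-0.38, adjusted p = 0.0469) and with array weights (-0.37, adjusted p = 0.0352). Grem1 and Nog lie at levels of 2 to 2.5, where 12.8% of genes were called lower and 2.30% higher.

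Among the ligands, BMP7, best known from kidney and skeletal development, fell. Bmp7 read 5.99, 5.35, 5.84 and 5.68 in KO arrays, against 6.80, 5.90, 6.47 and 6.59 in WT arrays. The groups overlapped, since WT 2 lay below KO 1, but in each same-numbered pair the KO array was the lower one, by -0.81, -0.55, -0.63 and -0.91. The difference was -0.73 ± 0.21 (log2 ± SE, n = 4 per group, limma adjusted p = 0.0354). Of the genes at levels of 6 to 8, 5.43% were called lower and 33.1% higher. The call was lost in 9 of 20 alternative settings, in which the difference ran from -0.77 to -0.59: with sex as a term (adjusted p = 0.0504), among males only (-0.67, adjusted p = 0.167), after median centring (-0.59, adjusted p = 0.0868) and without any one of KO 2, KO 3, KO 4, WT 1, WT 3 or WT 4 (adjusted p = 0.0597 to 0.0874). It kept its call with the replicate number as a block. The difference was larger after the second quantile normalization (-1.13, limma adjusted p = 0.00534) and after cyclic loess (-1.13, limma adjusted p = 0.00293).

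Bmp4, the ligand that patterns the mesenchyme around many developing organs, read 3.07, 3.41, 3.46 and 3.27 in KO arrays, against 2.75, 3.10, 3.72 and 3.45 in WT arrays. The difference was 0.05 ± 0.20 (limma adjusted p = 0.873), with a 95% interval of -0.41 to 0.50, and its direction turned in 6 of 18 alternatives. Bmp2, a close relative of Bmp4, read 1.64 to 2.01 in KO arrays and 1.58 to 2.15 in WT arrays. Its difference was -0.10 ± 0.15 (limma adjusted p = 0.632), with an interval of -0.45 to 0.24, and it turned to between 0.034 and 0.10 under the 3 other scalings. Neither ligand separated the groups.

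The target genes are read beside the sequence at their starts. Sequence further from the starts, where SMAD proteins can also bind, was not searched. The RefSeq table (assembly GRCm38.p6) holds a window of 250 bases before to 50 after the start for 5 of the 10 members. Shown are those of the 3 target genes among them: Id2, which rose (chr12:25096043-25096342, minus strand), and Id3 (chr4:136143572-136143871, plus strand) and Smad6 (chr9:64022010-64022309, minus strand), which did not pass. Each reads 5′ to 3′ on the strand of its gene. Capitals mark GGCGCC, a GC-rich SMAD1/5 element that reads the same on both strands, and GTCT, the short SMAD element, searched on both strands and so also shown as AGAC.
Id2: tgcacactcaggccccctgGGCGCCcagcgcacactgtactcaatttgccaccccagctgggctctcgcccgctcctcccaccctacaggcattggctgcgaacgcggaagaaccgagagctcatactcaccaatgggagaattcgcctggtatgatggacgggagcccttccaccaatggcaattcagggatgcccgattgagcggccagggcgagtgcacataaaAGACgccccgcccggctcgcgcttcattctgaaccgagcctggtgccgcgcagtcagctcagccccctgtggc
Id3: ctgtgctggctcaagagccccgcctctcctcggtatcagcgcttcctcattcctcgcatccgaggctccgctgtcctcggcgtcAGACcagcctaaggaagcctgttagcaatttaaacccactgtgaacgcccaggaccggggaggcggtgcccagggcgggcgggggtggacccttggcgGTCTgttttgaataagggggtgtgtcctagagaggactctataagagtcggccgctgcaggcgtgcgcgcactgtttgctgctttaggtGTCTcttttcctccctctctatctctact
Smad6: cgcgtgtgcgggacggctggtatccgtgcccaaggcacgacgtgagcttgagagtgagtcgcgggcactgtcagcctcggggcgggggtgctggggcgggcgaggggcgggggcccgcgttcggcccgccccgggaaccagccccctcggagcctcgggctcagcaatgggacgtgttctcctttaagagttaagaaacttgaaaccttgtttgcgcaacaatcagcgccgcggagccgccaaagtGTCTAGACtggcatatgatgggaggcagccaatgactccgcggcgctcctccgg
GGCGCC occurred 1 time in the Id2 window and 0 times in those of Id3 and Smad6. GTCT occurred 1 time in Id2, 3 times in Id3 and 2 times in Smad6, where the 2 matches adjoin. The windows not shown are those of Grem1, which fell, and Bmp4, which did not pass. Grem1 holds GGCGCC 1 time and GTCT 6 times, and Bmp4 holds them 0 and 2 times. Whether matches go with the expression differences was not tested. Over all 32851 windows, 11.9% hold GGCGCC and 88.0% hold GTCT, so a GTCT match is common to most promoters. A match is not a binding site, and the 3 windows shown are G and C rich (63.3%, 60.0% and 66.3% for Id2, Id3 and Smad6, against a median of 52.7%).

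The Id proteins are helix-loop-helix factors without a DNA-binding region, which bind E proteins and keep them off DNA. Id2 rose in KO pancreas. It read 6.00, 6.57, 6.32 and 6.84 in KO 1 to KO 4, against 6.00, 5.71, 5.42 and 5.67 in WT 1 to WT 4. KO 1 and WT 1 were level to 2 decimals, and KO 2, KO 3 and KO 4 stood above every WT array. The difference was 0.73 ± 0.19 (log2 ± SE, n = 4 per group, 1.66-fold, limma adjusted p = 0.0267). Genes of level 6 to 8 were called higher in 33.1% of cases, with a median difference of 0.39. Quantile-normalizing again gave Id2 0.34 (adjusted p = 0.294) and cyclic loess 0.33 (adjusted p = 0.335), and the call was also lost among males only (0.59, adjusted p = 0.137) and without any one of KO 2, KO 3, KO 4, WT 3 or WT 4 (0.60 to 0.77, adjusted p = 0.0522 to 0.0748).

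Id1, often the most responsive of the Id genes to BMP, read 2.59, 2.69, 2.80 and 2.54 in KO arrays, against 2.76, 3.02, 3.42 and 3.02 in WT arrays. WT 1 fell within the KO range, and the other 3 WT arrays lay above all KO arrays. The difference was -0.40 ± 0.15 and did not pass (limma adjusted p = 0.0846), with a 95% interval of -0.74 to -0.06. It passed without WT 1 (-0.50, adjusted p = 0.0337) and with array weights (-0.48, adjusted p = 0.037). At levels of 2.5 to 3, 11.3% of genes were called lower and 8.94% higher.

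Id3 showed no separation. It read 3.09, 3.73, 3.37 and 3.13 in KO arrays, against 3.18, 3.03, 3.30 and 3.77 in WT arrays. The difference was 0.01 ± 0.20 (limma adjusted p = 0.977), with an interval of -0.43 to 0.45, and replicates 2 and 4 differed by 0.70 and -0.64. Smad6, the inhibitory SMAD that BMP signalling induces as a brake on its own receptors, read 2.24, 2.95, 2.29 and 2.28 in KO arrays, against 2.75, 2.29, 2.57 and 2.66 in WT arrays. KO 2 stood above all other arrays. The difference was -0.12 ± 0.18 (limma adjusted p = 0.621), with an interval of -0.53 to 0.28, and it turned to 0.01 after median centring and to 0.003 after cyclic loess. The intervals of Id3 and Smad6 leave room for differences of about the size seen for Id1.

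**Figure D2:**
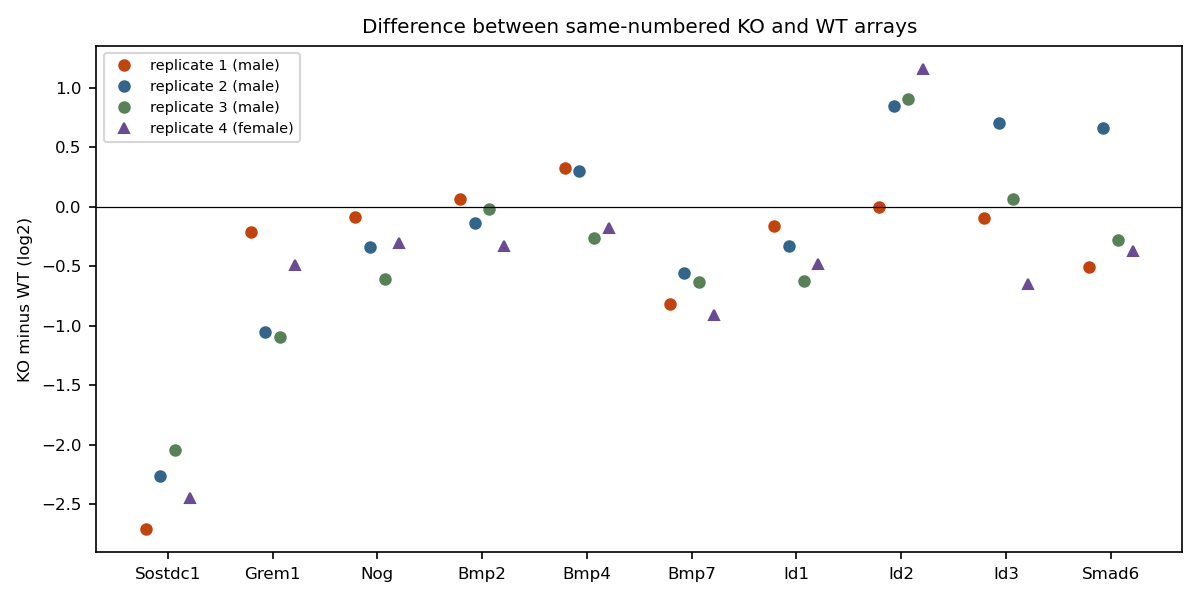
Difference (log2) between the KO and the WT array of the same replicate number for each of the 10 genes, with males as circles and the female pair as triangles. Sostdc1, Grem1, Nog, Bmp7 and Id1 are lower in KO in 4 of 4 pairs, while Id3 and Smad6 lie on both sides of 0.

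The array-by-array values give no common order of Sostdc1 and the target genes. Within KO, Sostdc1 was lowest in KO 4 (3.37), which had the highest Id2 (6.84) and the lowest Id1 (2.54) of that group. It was highest in KO 3 (5.12), which had the highest Id1 (2.80) and an Id2 of 6.32. KO 1, next in Sostdc1 (4.40), had the lowest Id2 (6.00). Within WT, the arrays with the most Sostdc1, WT 3 (7.16) and WT 1 (7.11), had the lowest and the highest Id2 (5.42 and 6.00) and the highest and the lowest Id1 (3.42 and 2.76). The genotypes form separate clusters of 4 in Sostdc1, which is too few for a correlation within either. Whether the Sostdc1 difference and those of the target genes are linked was not tested.

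The rest of the pathway was read from 60 measured genes listed for their roles, with 6 more that had no row of their own. Of these 6 rose and 6 fell (20.0% called, against 21.6% of all genes), and their median difference was -0.15, against -0.06 over all genes. Of the 60 genes 35 had a mean level under 3, and 33 of those (94.3%) were negative in sign, against 10171 of 12866 genes of such levels (79.1%). At an unadjusted p under 0.05, 8 of the 60 were higher (13.3%, against 21.9% of all genes) and 17 lower (28.3%, against 17.2%). Whether the pathway differs from other genes of like level was not tested.

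**Figure D3:**
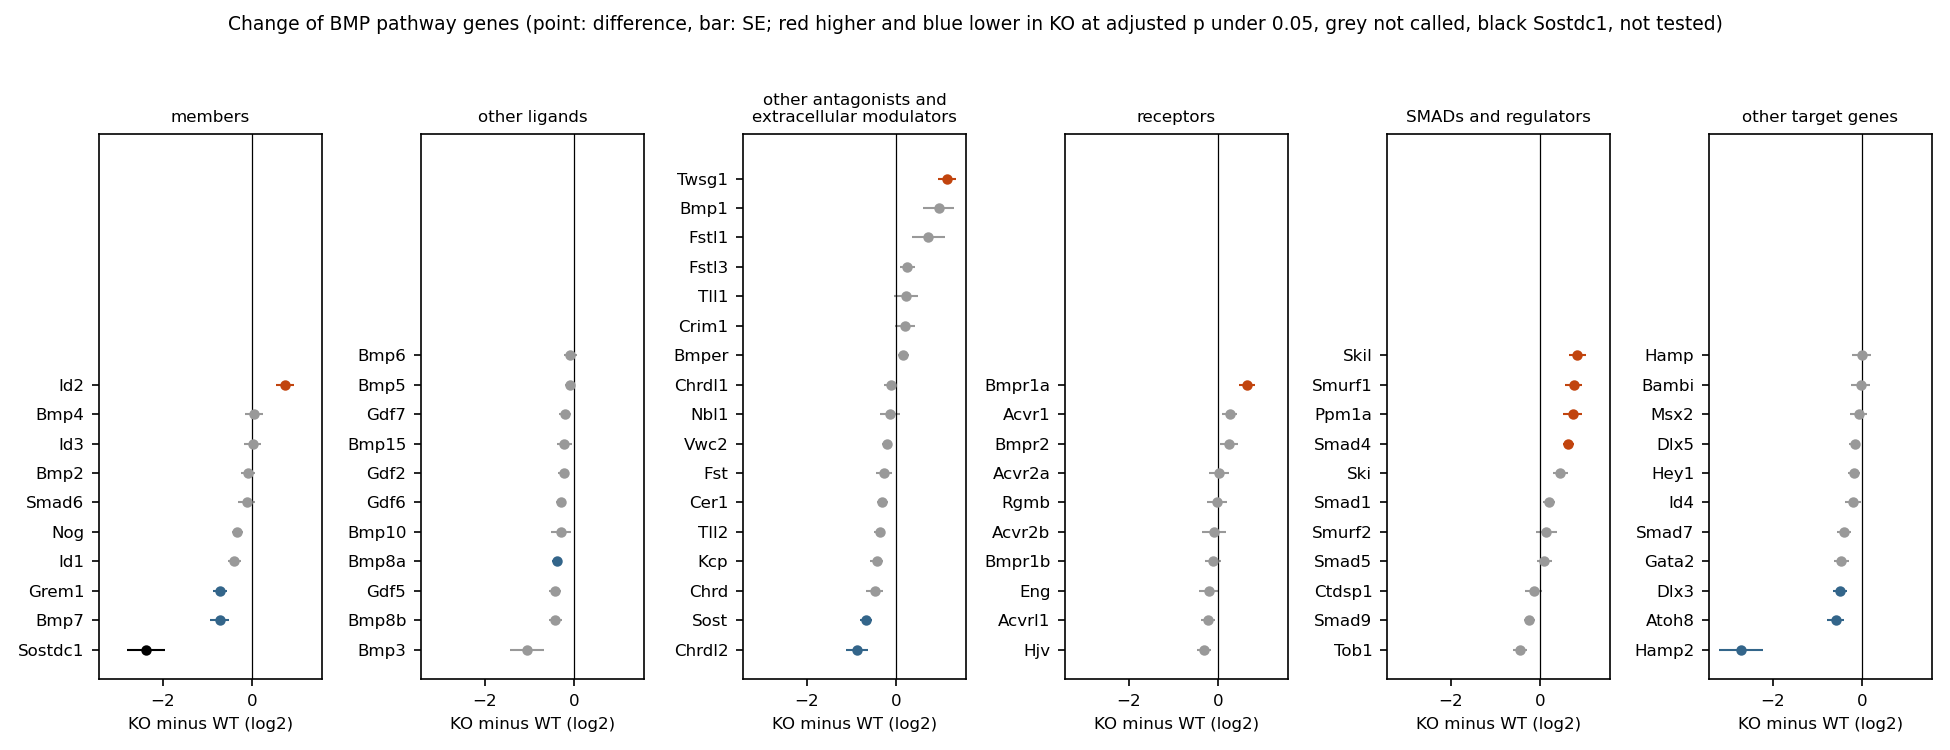
Difference KO minus WT (log2, bar: SE) of the 10 listed genes and of 60 further BMP pathway genes by role. Red and blue mark genes higher and lower in KO at a limma adjusted p under 0.05, grey those not called and black Sostdc1, which is described without a test; among the 60 further genes the calls of SMADs and receptors are on the higher side, where none passed after the second quantile normalization or cyclic loess, and those of ligands and targets on the lower side, while of the listed genes Id2 is higher and Bmp7 and Grem1 are lower.

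Of 11 other ligands 0 rose and 1 fell by limma (0 and 5 at an unadjusted p under 0.05, against 21.9% and 17.2% of all genes). Bmp8a, a relative of BMP7 known from germ cell development, differed by -0.38 ± 0.11 (limma adjusted p = 0.0408), a call lost in 13 of 18 alternatives, among them the replicate number as a block (adjusted p = 0.0836). All 11 were negative in sign, 10 of them at levels under 3, and their median of -0.29 was -0.15, -0.10 and -0.15 after the second quantile normalization, cyclic loess and median centring. Bmp3, a BMP family member that opposes osteogenic BMPs, read 4.69, 4.41, 3.73 and 4.47 in KO arrays, against 6.31, 4.30, 5.26 and 5.66 in WT arrays. Its difference of -1.05 ± 0.38 did not pass (limma adjusted p = 0.0722), and WT 2 lay within the KO range. The gene passed after the second quantile normalization (-1.41, limma adjusted p = 0.0274) and cyclic loess (-1.43, limma adjusted p = 0.0229). After median centring it stood at -0.92 (limma adjusted p = 0.125). Bmp3 was picked for its size after its values were seen.

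Of 17 other antagonists and extracellular modulators 1 rose and 2 fell by limma (17.6% called, against 21.6% of all genes). At an unadjusted p under 0.05, 2 were higher (11.8%, against 21.9% of all genes) and 6 lower (35.3%, against 17.2%). Of the 12 with a mean level under 3, 10 were negative in sign (83.3%, against 79.1% of all genes of such levels). Twisted gastrulation (Twsg1), which binds BMPs and chordin, read 6.27, 6.98, 6.51 and 6.35 in KO arrays, against 5.20, 5.19, 5.87 and 5.34 in WT arrays. The groups did not overlap and the difference was 1.13 ± 0.20 (limma adjusted p = 0.00638); it was 0.72 after either the second quantile normalization (adjusted p = 0.0551) or cyclic loess (adjusted p = 0.0514). Sclerostin (Sost), the closest relative of SOSTDC1 and a Wnt inhibitor made by bone cells, fell by 0.68 on the log2 scale (SE 0.13, limma adjusted p = 0.00757), at 1.34 to 1.73 in KO arrays and 2.07 to 2.33 in WT arrays. Its mean level was low (1.87), and among genes under 2 the median difference was -0.19. Of those genes 6.93% were called lower and 0.486% higher. The chordin-like protein Chrdl2 differed by -0.87 ± 0.25 (limma adjusted p = 0.0347), a call lost in 10 of 18 alternatives. Chordin itself (Chrd, -0.48 ± 0.18, limma adjusted p = 0.0812) and follistatin (Fst, -0.27 ± 0.18, limma adjusted p = 0.278) did not pass.

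Of 10 receptors and co-receptors 1 rose and 0 fell by limma (10% called, against 21.6% of all genes). The counts were the same at an unadjusted p under 0.05 (10% and 0%, against 21.9% and 17.2% of all genes). The type I receptor gene Bmpr1a differed by 0.64 ± 0.18 (limma adjusted p = 0.0325), with 5.45 to 5.62 in KO arrays and 4.58 to 5.32 in WT arrays. The call was lost in 9 of 19 alternatives, and under the second quantile normalization the value was 0.22 (adjusted p = 0.383). The type II receptor gene Bmpr2 (0.25 ± 0.20, limma adjusted p = 0.365) and the type I receptor gene Acvr1 (0.26 ± 0.16, limma adjusted p = 0.259) did not pass.

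Among SMADs and their regulators 4 of 11 rose and 0 fell by limma (36.4% called, against 21.6% of all genes). At an unadjusted p under 0.05, 5 were higher (45.5%, against 21.9% of all genes) and 1 lower (9.09%, against 17.2%). After the second quantile normalization or cyclic loess none passed as higher. Smad4, the common partner of all receptor-activated SMADs, differed by 0.63 ± 0.12 (limma adjusted p = 0.00882). The others were the SMAD corepressor Skil (0.83 ± 0.19), the ubiquitin ligase Smurf1, which marks SMAD1 and SMAD5 for degradation (0.75 ± 0.19), and the phosphatase gene Ppm1a (0.73 ± 0.21), with limma adjusted p of 0.0173, 0.0215 and 0.0366. Smad4 and Ppm1a lie at levels of 6 to 8, where 33.1% of all genes rose, Skil at 4 to 5, where 36.6% rose, and Smurf1 at 3 to 4, where 22.9% rose. The calls were lost in 3 of 20 (Smad4), 4 of 19 (Skil), 7 of 19 (Smurf1) and 11 of 20 (Ppm1a) alternatives. Smad1 (0.20 ± 0.13, limma adjusted p = 0.273) and Smad5 (0.09 ± 0.17, limma adjusted p = 0.703), which carry the BMP signal, did not pass. After the second quantile normalization and after cyclic loess 0 of the 60 pathway genes were called higher, and the median of the SMAD list, 0.20, turned to -0.08 and -0.04. Tob1 of the same list, not called in the main fit (-0.44 ± 0.16, limma adjusted p = 0.0703), passed as lower under both scalings. It stood at -0.73 and -0.78 there (limma adjusted p = 0.0127 and 0.00631), and at -0.30 after median centring (limma adjusted p = 0.221).

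Of 11 other target genes 0 rose and 3 fell by limma (0 and 5 at an unadjusted p under 0.05, against 21.9% and 17.2% of all genes). All 11 were negative in sign, 9 of them at levels under 3, and their median of -0.21 was -0.10, -0.03 and -0.08 after the second quantile normalization, cyclic loess and median centring. Hamp2 is counted among them as one of the hepcidin family, whose liver member Hamp is a BMP target. Whether Hamp2 itself responds to BMP was not tested. Hamp2 read 5.15, 4.74, 3.30 and 4.77 in KO arrays, against 7.14, 6.57, 6.56 and 8.50 in WT arrays. It differed by -2.70 ± 0.49 (limma adjusted p = 0.00671), and every KO array lay below every WT array. The helix-loop-helix factor Atoh8 (-0.59 ± 0.18, limma adjusted p = 0.0471) and the homeobox factor Dlx3 (-0.50 ± 0.16, limma adjusted p = 0.0484) lay close to the threshold, and each lost its call in 12 of 18 alternatives, Dlx3 also with the replicate number as a block (adjusted p = 0.082). The inhibitory Smad7 read 2.78, 2.87, 2.35 and 2.71 in KO arrays, against 2.89, 3.06, 3.42 and 3.00 in WT arrays, and its difference of -0.41 ± 0.16 did not pass (limma adjusted p = 0.0884). Hamp (-0.01 ± 0.21, limma adjusted p = 0.973), Id4 (-0.21 ± 0.18, limma adjusted p = 0.375) and the pseudoreceptor Bambi (-0.04 ± 0.22, limma adjusted p = 0.907) did not pass either.

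**Figure D4:**
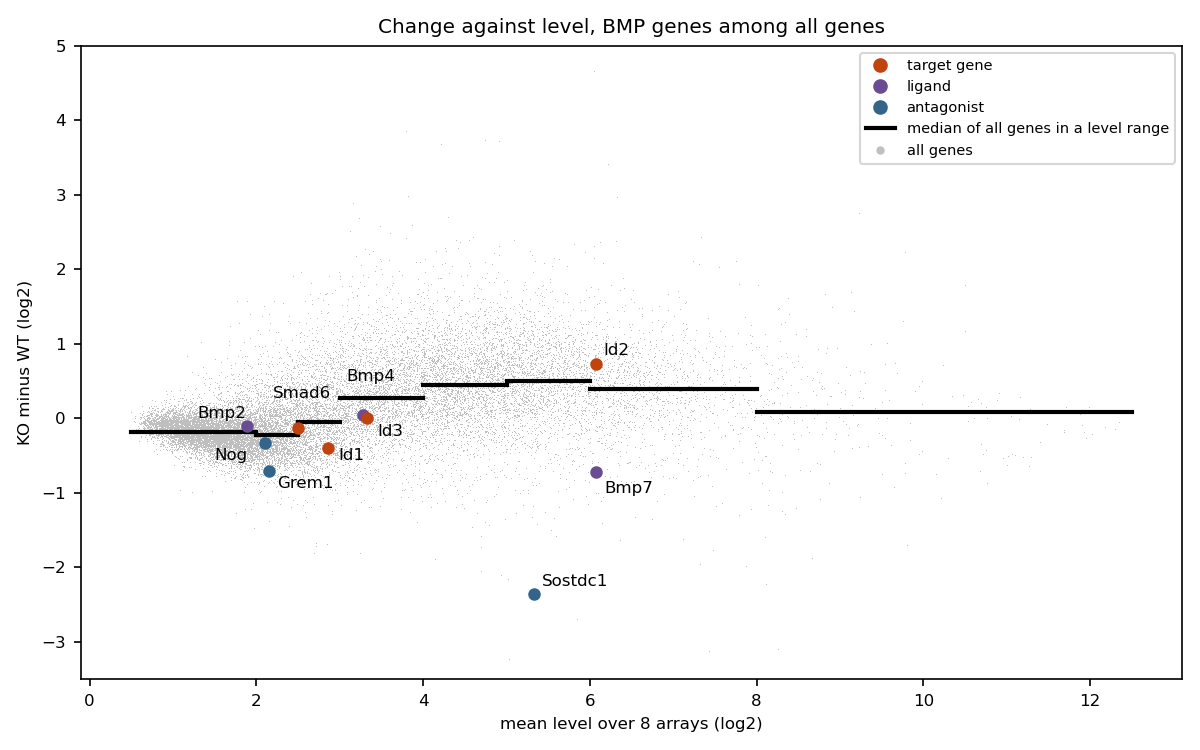
Difference KO minus WT (log2) against mean level over 8 arrays for all 22180 genes (grey), with the median in ranges of level (black lines) and the 10 BMP genes in colour by role. Genes of low level lie below 0 on balance (median -0.23 at 2 to 2.5) and genes of middle level above it (0.50 at 5 to 6). Of the 10 BMP genes, Bmp2 and Id2 lie above the line of their level and all others below it, Sostdc1 and Bmp7 the furthest.

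Since SOSTDC1 also acts on Wnt signalling, Wnt target genes were read too. Of 11 measured, 0 rose and 1 fell by limma (0 and 4 at an unadjusted p under 0.05, against 21.9% and 17.2% of all genes). The gene that fell was the ubiquitin ligase Rnf43, which removes Wnt receptors (-0.58 ± 0.15, limma adjusted p = 0.0242). Its call was lost in 5 of 19 alternatives: among males only (-0.42, adjusted p = 0.145), after median centring, and without any one of KO 2, KO 4 or WT 4. Rnf43 kept its call after the second quantile normalization (-0.83, limma adjusted p = 0.00913) and cyclic loess (-0.80, limma adjusted p = 0.00751). Axin2, the general feedback gene of the pathway, differed by -0.09 ± 0.16 (limma adjusted p = 0.677). All 11 were negative in sign, 8 at levels under 3, with a median of -0.21. Of the co-receptors that SOSTDC1 binds, Lrp5 (0.11 ± 0.15, limma adjusted p = 0.609) and Lrp6 (0.003 ± 0.18, limma adjusted p = 0.992) did not pass, and both turned negative after the second quantile normalization (-0.30 and -0.34). The third, Lrp4, stood at -0.46 ± 0.18 and did not pass (limma adjusted p = 0.0957), with the KO array the lower one in 4 of 4 pairs. It passed after the second quantile normalization (-0.70, adjusted p = 0.044) and cyclic loess (-0.67, adjusted p = 0.0373), and stood at -0.32 after median centring (adjusted p = 0.266).

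In the sister pathway of TGF-beta 3 of 12 measured genes rose and 0 fell by limma (7 and 0 at an unadjusted p under 0.05, against 21.9% and 17.2% of all genes). Tgfb1, the ligand itself, read 4.73, 6.07, 5.39 and 5.86 in KO arrays, against 3.28, 4.55, 3.41 and 4.44 in WT arrays. Its difference was 1.59 ± 0.36 (limma adjusted p = 0.0155). Tgif1, a SMAD corepressor, differed by 1.19 ± 0.20 (limma adjusted p = 0.00501) and the type I receptor gene Tgfbr1 by 0.63 ± 0.20 (limma adjusted p = 0.046). The Tgfbr1 call was lost in 11 of 18 alternatives, with an adjusted p of up to 0.221, those of Tgfb1 in 4 of 19 and of Tgif1 in 1 of 19. Of the E proteins, the partners of the Id proteins, Tcf12 differed by 0.67 ± 0.17 (limma adjusted p = 0.0252, lost in 7 of 20 alternatives), while Tcf3 (0.35 ± 0.20, limma adjusted p = 0.206) and Tcf4 (0.09 ± 0.15, limma adjusted p = 0.671) did not pass. After the second quantile normalization Tcf12 was at 0.25 (adjusted p = 0.209) and Tgfb1 at 1.20 (adjusted p = 0.0784).

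Markers of several cell types moved with genotype, and their part in the values above was not tested. Over all genes 14.6% were called higher and 6.99% lower by limma. Counts in brackets are those at an unadjusted p under 0.05, where 21.9% of all genes were higher and 17.2% lower. Of 11 acinar markers 0 rose and 5 fell by limma (0 and 5). Of 11 macrophage markers 4 rose and 0 fell (10 and 0), and their mean level was 5.09 to 6.72 in KO arrays and 3.81 to 5.46 in WT arrays. Of 12 stellate cell and fibroblast markers 1 rose and 0 fell (5 and 1), with means of 4.67 to 6.06 in KO and 4.28 to 5.33 in WT arrays. Endothelial markers, of cells in which BMP targets are strongly induced, had 0 of 14 genes called by limma (0 and 2). Their means were 3.13 to 3.83 in KO and 3.50 to 3.72 in WT arrays. Of the 9 at levels of 3 or more, 8 were negative in sign, against 2081 of 9314 genes of such levels. Kdr and Flt1 passed as lower after the second quantile normalization (-1.15 and -0.54, limma adjusted p = 0.0341 and 0.0472). They also passed after cyclic loess (-1.16 and -0.52, limma adjusted p = 0.0453 and 0.0495). After median centring neither passed (-0.72 and -0.09). None of the acinar or macrophage markers and 5 of the endothelial markers had a mean level under 3. Of 8 duct markers 2 rose and 1 fell (3 and 2), of 9 islet markers 0 rose and 1 fell (0 and 1), and of 5 mesothelial markers 0 were called by limma (0 and 0).

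Likeness to Sostdc1 was measured as the root mean square difference between profiles over the 8 arrays, each centred on its own mean. Predicted genes, RIKEN clones, microRNAs and small nucleolar RNAs were left out of the ranking. The nearest genes were chymotrypsin C (Ctrc, 0.58 log2 units), the Rap1 GTPase-activating protein gene Rap1gap (0.65), glycine N-methyltransferase (Gnmt, 0.69), the amylase Amy2b (0.70) and lecithin-cholesterol acyltransferase (Lcat, 0.71). Gnmt read 5.10, 4.50, 4.89 and 4.72 in KO arrays, against 6.79, 5.96, 6.30 and 6.52 in WT arrays. All 5 lay lower in every KO array than in any WT array, with mean differences of 1.59 (Gnmt) to 2.24 (Ctrc) log2 units. Over all genes the groups did not overlap for 27.4%. The 5 were chosen by likeness to Sostdc1, which separated the groups itself, so their separation is a description only. The measure mostly follows the genotype difference. Amylases and chymotrypsins have close copies whose transcripts could share probes.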

How the data were processed

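Total RNA of mouse pancreas was measured on 8 whole-transcript arrays. The authors deposited 1 table of log2 values, 41345 rows by 8 arrays; the tools named, per the submitters' processing notes, are oligo, RMA and limma, without versions, and the log base is read from the range of the values. No source used here gives signal over background, scan batches or the genome build of the array design. Columns were matched to samples by name and 0 stayed without a sample. Gene names came from the platform annotation (23521 with 1 symbol, 1814 with several and 16010 with none, the last 2 kinds left out), and of a gene's rows the one of highest mean was kept.

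KO was compared with WT by limma 3.58.1 in R 4.3.3 (lmFit, eBayes, genotype as the only factor) over all 22180 genes with no filter, with Benjamini-Hochberg adjustment and a threshold of 0.05; changes are KO minus WT. On simulated data of 22180 genes with 200 changed, the test found 81% of those set to 1 log2 unit and 100% of those set to 2, false calls made up 6.22% of all calls, and data without any change gave 0 calls. The members and all gene lists were chosen with earlier results of these data known. Named were the 10 members, Lmna and, among the genes ranked by likeness, the 5 nearest to Sostdc1. Per list, up to 4 called genes of smallest p were named, or the 2 of highest level where none passed. Bmp3, Lrp4, Tob1, Kdr, Flt1 and the other uncalled genes given by role were added for description.

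Both genotypes carry replicate numbers 1 to 4. Across genes, KO and WT arrays of one number correlated in their deviation from the group mean at 0.26, 0.17, 0.11 and 0.14. Arrays of different numbers correlated at -0.21 to 0.12. Every same-number value exceeds 0.1, but so do those of KO 2 with WT 4 (0.125) and KO 1 with WT 3 (0.106). The former also exceeds the value of replicate 3 (0.110). Whether the numbers pair the arrays is therefore not settled, and no litter or day is named in the labels. The fit behind the printed p-values has no block, and the block was an alternative. Alternatives were the replicate block, sex as a covariate, the males alone, leaving out each array, 3 other scalings over all rows, other variance models, filters at a mean level of 4 or 6 in either group, and other choices of rows.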

Additional observations from a re-analysis of the deposited data

Results flagged for a closer look

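In groups of 4 arrays, a value was looked at again where its gap to the nearest other array took a larger part of the group's range than Dixon's critical value allows. Of 70 groups (35 genes in KO and WT) 4 met this, where chance alone marks about 1 group in 20. Smad6 read 2.95 in KO 2, against 2.24 to 2.29 in the other KO arrays. Bmpr1a read 5.45 in KO 2, against 5.60 to 5.62 in the other KO arrays. Tgfbr1 read 4.15 in KO 4, against 3.72 to 3.79 in the other KO arrays. Amy2b read 7.99 in KO 1, against 7.60 to 7.66 in the other KO arrays. A difference of the genotype effect between the sexes, tested as an interaction with 1 female per genotype, takes its spread from the males alone, so a gene that did not pass is not shown to behave alike in both sexes. It passed for 1 of all genes and for 0 of the 35 (limma with Benjamini-Hochberg adjustment); 1 of the 35, Ctrc, had an unadjusted p under 0.05.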

How the results depend on the processing

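Of 644 recomputed values for 34 named genes (without Sostdc1), 480 kept their direction and their side of the threshold, 131 lost a call, 4 gained one and 29 turned in sign. In the fit with a replicate block 3698 genes were higher and 1348 lower, the members kept 1 and 2 calls, and of the named genes Bmp8a and Dlx3 lost their call and no other call changed. Median centring moved the median of all genes by 0.14, to 0.08 (log2). The share of rises among calls, 67.6% in the main setting, moved with 1228 higher and 1142 lower genes after the second quantile normalization, 1521 and 1178 after cyclic loess, and 4390 and 615 after median centring. Counts by setting (higher, lower in KO) follow, over all genes, over the 9 tested members, over 60 pathway genes and over 29 genes of the comparison lists. Males only gave 770 and 145, 0 and 0, 0 and 1, and 0 and 0. After the second quantile normalization the members had 0 higher, the pathway 0 higher and the comparison lists 1 and 2, and after cyclic loess likewise 0, 0, and 1 and 2. After median centring 1 member, 2 pathway genes and 0 comparison genes were lower. With sex as a term 1 member and 3 pathway genes were lower. Array weights gave 4 members and 3 comparison genes lower, and eBayes with trend and robust 2 comparison genes lower. A filter at a mean of at least 4 in either group left 333 genes, 1 member and 2 pathway genes lower, and one at 6 left 928 genes higher and 165 lower, 1 member lower, 3 and 1 pathway genes, and 1 and 0 comparison genes; both test fewer genes. Of the tested members these filters keep Bmp7 and Id2, and at 6 Bmp7 enters only through its WT mean and Id2 only through its KO mean, so that count is no support for either. Without 1 array the counts ran from 1781 to 3713 and from 459 to 2357 over all genes (lowest without KO 4 in both), from 0 to 1 and 1 to 3 over the members, from 2 to 6 and 2 to 7 over the pathway, and from 1 to 4 and 0 to 3 over the comparison lists. Differences that turned in sign were those of Bmp2 (0.061 after the second quantile normalization, 0.10 after cyclic loess, 0.034 after median centring), Bmp4 (-0.097 and -0.057 after the first 2 and -0.071 with array weights), Id3 (-0.13, -0.11 and -0.11 likewise), Smad6 (0.0026 after cyclic loess, 0.012 after median centring), Lrp5 (-0.30 and -0.28) and Lrp6 (-0.34, -0.38, -0.10 with array weights and -0.32 as the mean of its rows). Without 1 array Bmp4 ran from -0.12 to 0.20, Id3 from -0.12 to 0.16, Lrp5 from -0.033 to 0.18 and Lrp6 from -0.14 to 0.14. The cause of these changes was not tested.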
